A study of Homo sapiens with 4 samples.

Results

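The 2 negative control libraries of PANC-1 cells were described here, out of 4 ribosome footprint libraries in the whole series, to show which proteins these cells were making when nothing had been depleted on purpose. They were chosen by their labels alone, and the 2 libraries of FBXO32-depleted cells were not used. PANC-1 is an established human pancreatic ductal adenocarcinoma line, grown in DMEM with fetal bovine serum and collected just below full confluency. Cells of both libraries were treated with cycloheximide at 100 µg/mL for 2 min. The labels call the libraries negative controls and bioreplicates 1 and 2, and they name neither the control reagent nor separate cultures, so an SD over the pair may be technical. The study asked which genes FBXO32 regulates at the level of translation. FBXO32 itself, the substrate-binding F-box protein of an SCF ubiquitin ligase, stood at 18.1 and 21.6 TPM in the control libraries.

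Ribosome profiling digests the RNA that ribosomes do not cover and sequences the short fragments they protect, so a gene with many fragments per unit of length is one with many ribosomes on its mRNA. That density depends, among other things, on how much mRNA there is and on how often each copy is read. Without RNA-seq of the same cells this pair cannot be told apart. Each gene has 1 value per library in TPM, a share of the library per unit of gene length, which keeps no read depth. How deeply each library was sequenced cannot be read from such values, and no interval for counting error is given.

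Of 20307 listed genes, 10938 had at least 1 TPM in both libraries (53.9%), and such genes are called present below. A further 6154 were listed at 0 in both (30.3%), which can also be a failed estimate, and 1557 were at 0 in 1 library only. The remaining 1658 were above 0 in both but under 1 TPM in at least 1. The median present gene had a mean of 18.4 TPM, and 168 genes reached a mean of 1000 TPM. Footprint density per unit of length was concentrated on few genes, since 310 genes held 50% of the mean TPM and 3417 held 90%. A share of TPM is not a share of footprints, because long genes weigh less in it.

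Many of the most heavily read mRNAs in growing cells carry a run of pyrimidines that starts with C at the very first transcribed base, the 5′ terminal oligopyrimidine tract, through which the growth-sensing kinase mTORC1 controls the making of ribosomal proteins and elongation factors. The first bases of transcripts near the top of the control list are shown to let that feature be seen, and capitals mark the tract that lies nearest the start. Each window is read 5′ to 3′ on the gene's strand from RefSeq GRCh38.p14, and holds 10 bases before the annotated start and 20 from it.
RPS24 (chr10:78033853-78033882, plus strand): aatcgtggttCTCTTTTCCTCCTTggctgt
RPLP2 (chr11:809957-809986, plus strand): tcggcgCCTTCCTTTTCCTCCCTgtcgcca
RPS3 (chr11:75399508-75399537, plus strand): cgagccaCTTCCTTTCCTTTCagcggagcg
RPL37A (chr2:216498834-216498863, plus strand): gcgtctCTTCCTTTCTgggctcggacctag
EEF1A1 (chr6:73521013-73521042, minus strand): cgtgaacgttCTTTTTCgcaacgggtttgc
NPM1 (chr5:171387839-171387868, plus strand): agcctgcgtCCTTTCCCTggtgtgattccg
S100A6 (chr1:153535972-153536001, minus strand): gacacagcccatCCCCTCgaccgctcgcgt
TMSB10 (chr2:84905646-84905675, plus strand): ccgctCTTTTgtttcttgctgcagcaacgc
The longest tracts of these windows belong to the ribosomal protein genes RPLP2 (17 bases), RPS24 and RPS3 (14 bases each). S100A6 and TMSB10, from the same end of the list, have 6 and 5 marked bases. The search began 5 bases before the annotated start, so the pyrimidine runs of TMSB10 and RPL37A reach further left than marked. The marked stretch of TMSB10 lies wholly before the annotated start.

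Over all genes with a RefSeq start window, a C within 5 bases of the start followed by at least 4 pyrimidines was found for 3413 of 15340 (22.2%). The same search on the opposite strand found 2769 (18.1%). Among cytosolic ribosomal protein genes it was found for 51 of 63 (81.0%), against 4 on the opposite strand. Translation initiation factors had it in 13 of 31 and elongation and termination factors in 3 of 10. Among the 100 most heavily read genes, those that encode no ribosomal protein had it in 12 of 47 (25.5%), close to the share over all genes. Present genes had it in 22.9% and the other genes in 21.4%. A match is a run of letters at an annotated start and does not show where transcription began in these cells.

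S100A6, a small calcium-binding protein that is abundant in pancreatic cancer cells, was the most heavily read gene by a wide margin at 15977 and 16477 TPM (chr1:153534599-153536244). RPS24, a protein of the small ribosomal subunit, came next at 9735 and 7947 TPM. RPS25, of the same subunit, stood at 9758 and 5823 TPM. S100A6 was separated from RPS24 in both libraries, and it was the only gene of the leading 30 that did not overlap its neighbour below, since the other 28 of 29 neighbouring pairs overlapped. The order beneath S100A6 is therefore not fixed by this pair of libraries.

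Cytoskeletal genes filled several of the next places. ACTB, cytoplasmic beta-actin, had 8290.4 and 7276 TPM. TMSB10 and TMSB4X encode thymosins, short peptides that hold actin monomers, and their levels were 8032 and 5947 TPM and 3662 and 3832 TPM. CFL1, cofilin, which severs actin filaments, had 4329 and 4292 TPM. PFN1, profilin, which feeds monomers to growing filaments, had 2917 and 3987 TPM. MYL6, a light chain of nonmuscle myosin, had 3441 and 3745 TPM, and TPM2, a tropomyosin that lines actin filaments, had 4271 and 2773 TPM. Of these, CFL1 and TMSB4X differed least between the libraries.

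The other places among the 30 went to mitochondrial, nuclear and regulatory genes. MT-CO2, a cytochrome oxidase subunit translated inside mitochondria, had 8467 and 5406 TPM, and MT-CO1 of the same enzyme had 4787 and 2445 TPM. NPM1, nucleophosmin of the nucleolus, had 6177 and 4329 TPM. FTH1, the iron-storing ferritin heavy chain, had 5051 and 2421 TPM. MT-CO1 and FTH1 had the widest ratios between the libraries of the 30, and both were higher in library 1. EEF1A1, which brings aminoacyl-tRNA to the ribosome, had 3261 and 4874 TPM. CALM2, a calmodulin gene, had 4116 and 3722 TPM, and SERF2, a small protein known to promote protein aggregation, had 3834 and 4777 TPM. POLR2L, a small subunit shared by the nuclear RNA polymerases, had 3371 and 3858 TPM. B2M, the light chain of MHC class I, had 2912 and 4159.6 TPM. Of the remaining ribosomal protein genes of the 30, those named here (RPLP2, RPS3, RPL37A, RPLP1, RPL22, RPL27A, RPS27A, RPL37 and RPS16) lay between 3465 TPM (RPS16) and 6972 TPM (RPLP2) on average.

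**Figure D1:**
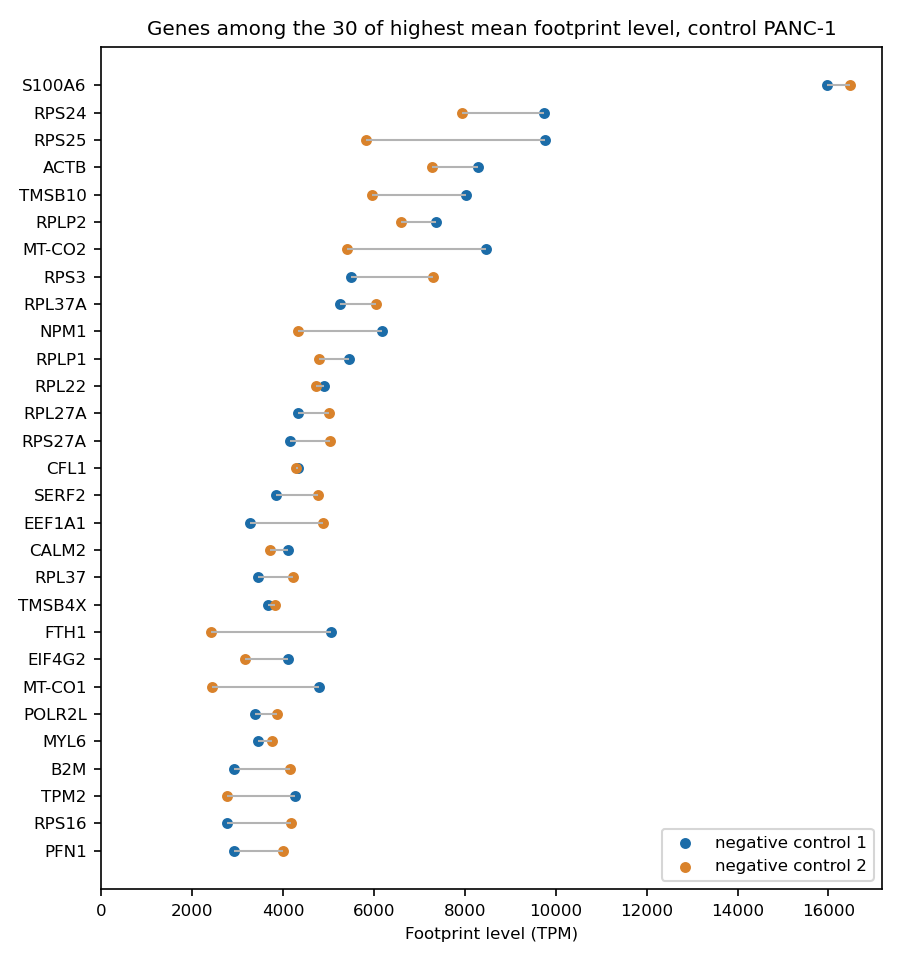
Footprint level in TPM (horizontal axis) of genes among the 30 with the highest mean in control PANC-1 cells, with 1 point for each library and a grey line between the pair. S100A6 stands apart at 15977 and 16477 TPM, and below it the pairs of points of neighbouring genes overlap.

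EIF4G2, an initiation factor related to eIF4G, was among the 30 at 4104 and 3157 TPM and is known for starting its protein at a GUG codon. Its first 30 coding bases in GENCODE 29 are shown because they let that start be seen, with the annotated start codon in capitals (the gene spans chr11:10797050-10809110, minus strand, GRCh38).
EIF4G2: GTGgagagtgcgattgcagaagggggtgct
Around the start codons of all genes, a purine 3 bases before the start codon, the best-known part of the Kozak context, was annotated for 88 of the 92 leading genes with a window (95.7%). The share was 92.4% over the 1000 highest genes, 86.5% over present genes, 83.5% over the others and 85.2% over all. A G just after the start codon, at position 4 counted from its first base as 1, was found in 53.3% of the leading 92, 53.7% of present genes and 46.9% of the others. These are counts over annotated sequences, and no test was made of them.

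The 10 highest genes held 7.89 ± 0.669% of all TPM (SD, n = 2), the 30 highest 15.97 ± 0.735% and the 100 highest 30.8 ± 0.440%, or 20.6% when TPM was weighted by coding length. Of the 100 highest, 40 encoded cytosolic ribosomal proteins, 10 belonged to the actin cytoskeleton, 7 were mitochondrially encoded, 4 were nucleolar and histone chaperones, and 26 fell in none of 21 protein classes. Short genes led, since the 100 highest had a median coding length of 454.5 nt, against 1359 nt over 10474 present genes with an annotated start context. Together the 21 classes, with 542 genes, took 42.0% of the TPM of library 1 and 43.0% of that of library 2.

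Ribosomal proteins were by far the largest class. All 79 were present, 57 of them at 1000 TPM or more, with a median mean of 1524 TPM and a share of 16.05 ± 0.930% of TPM (SD, n = 2). Weighted by coding length, which favours long genes, the share was 7.78%. The class was uneven at its lower end. RPL41, the shortest protein of the ribosome, had 199 and 61.6 TPM, RPL23A had 21.6 and 4.43 TPM, and RPL21 had 2.49 and 2.66 TPM, although each is needed once per ribosome. Genes of this class have many processed pseudogenes that share their sequence, so how reads were assigned to them is uncertain. The whole coding sequence of RPL41, 75 nt with the start codon in capitals, is shown because it is the shortest of the class (GENCODE 29, the gene spans chr12:56116586-56117943, plus strand, GRCh38).
RPL41: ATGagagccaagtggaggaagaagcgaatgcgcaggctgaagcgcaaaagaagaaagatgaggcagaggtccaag
RPL41, RPL23A and RPL21 were picked out after their values were seen.

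The rest of the translation machinery was present almost in full but at lower median levels. All 12 elongation and termination factors were present and held 0.917 ± 0.159% of TPM. Among them EIF5A, which helps ribosomes past prolines, had 2503 and 2803 TPM, and EEF1B2, an exchange factor for EEF1A1, had 758 and 987 TPM. EEF2, the translocase that works in every elongation step, had 457 and 365 TPM. The distance between EEF1A1 and EEF2 was wider than the spread of either gene over the pair. Initiation factors were present in 37 of 38, with a share of 1.34 ± 0.0752%, or 2.26% when weighted by coding length. After EIF4G2 these were led by EIF3K, a subunit of the eIF3 complex, at 1280.3 and 1755 TPM, and EIF1, which guards start codon choice, at 867 and 1120.0 TPM. All 20 cytosolic tRNA synthetases were present, with QARS1 for glutamine at 492 and 248 TPM, NARS1 for asparagine at 351 and 230.1 TPM and TARS1 for threonine at 222 and 146 TPM. They had a median of 72.7 TPM, well under the 1524 TPM of ribosomal proteins.

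Energy metabolism drew on both genomes, since the respiratory complexes join mitochondrially and nuclear-encoded subunits. The 13 mitochondrially encoded subunits were all present and held 3.21% of the TPM of library 1 and 1.92% of that of library 2. MT-ND5, of complex I, followed MT-CO2 and MT-CO1 at 3436 and 2190.5 TPM. Of 79 nuclear-encoded subunits 78 were present, at 3.73 ± 0.487% of TPM (1.54% weighted by coding length). Their median was 354 TPM, against 1615 TPM for the mitochondrially encoded ones. Whether cycloheximide arrest captured ribosomes inside and outside mitochondria alike was not tested, so these medians may not share a scale. NDUFA1 of complex I had 1529 and 2071 TPM, UQCRB of complex III had 1684 and 1623 TPM, and UQCRQ of the same complex had 1838 and 1153 TPM. All 17 glycolytic enzymes were present too, led by GAPDH at 1154 and 1866 TPM, ENO1 at 1154 and 1646 TPM and ALDOA at 1169.8 and 1611 TPM. These 3 were each lower in library 1.

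The actin class came next in share at 4.79 ± 0.259% of TPM, with all 34 genes present. Tubulins held 0.294 ± 0.0809%, with TUBA1B at 721 and 1299.9 TPM, TUBA1C at 406 and 679 TPM and TUBB at 389 and 565 TPM. Intermediate filaments were present in 8 of 11 genes, led by VIM, the filament of mesenchymal cells, at 1754 and 1837 TPM. The keratins of simple epithelia came next, KRT18 at 1251 and 1098 TPM and its partner KRT8 at 506 and 476 TPM. A mesenchymal filament and an epithelial pair were thus both read heavily, and VIM was above KRT18 and KRT18 above KRT8 in each library. S100 proteins held 2.19 ± 0.144% (0.630% weighted by coding length), most of it S100A6, with 9 of 16 present (56.2%, near the 53.9% of all genes). S100A10, the partner of annexin A2, had 2834 and 3659 TPM, and S100A11 had 1138 and 1438 TPM. ANXA2, a membrane-binding annexin, had 2584 and 2579 TPM, followed by ANXA5 at 417 and 423 TPM and ANXA1 at 304 and 310.4 TPM.

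Chaperones and turnover were present in full. Among 24 cytosolic chaperones, PPIA, cyclophilin A, had 2550.0 and 3922 TPM, HSPA8, the constitutive HSP70, had 1751 and 1174 TPM and HSP90AA1 had 723 and 545 TPM. In the endoplasmic reticulum CALR, a calcium-binding chaperone of glycoproteins, had 1914 and 1887 TPM, P4HB, a disulfide isomerase, had 1403 and 1271 TPM and CANX, the membrane-bound relative of CALR, had 1152 and 1179.9 TPM. All 32 proteasome subunits were present, with PSMC4, an ATPase of the base, at 2129 and 1955 TPM, SEM1 at 771 and 723 TPM and PSMA7, of the core, at 556 and 609 TPM. UBB, a ubiquitin precursor, had 228 and 262 TPM.

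Histones were present in 59 of 65 genes and held 2.08 ± 0.225% of TPM, or 0.788% when TPM was weighted by coding length. They were led by H2BC5 at 1388 and 966 TPM, H3-3B at 963 and 837 TPM and H2AZ1 at 660.2 and 898 TPM. Copies of the replication-dependent histone genes are nearly identical, so levels of single copies are uncertain. NCL, nucleolin, had 3562 and 2687 TPM and PTMA, prothymosin alpha, 3023 and 2563 TPM. Of 29 splicing and RNA-binding proteins, all present, HNRNPA2B1 had 1431 and 1587 TPM, HNRNPH1 had 708 and 1011 TPM and SRSF3 had 658 and 750.3 TPM. The redox enzymes PRDX1, SOD1 and GSTP1 had 948 and 1386 TPM, 794 and 1103 TPM and 499 and 828 TPM, and the light ferritin chain, FTL, had 189 and 130.2 TPM, far below FTH1 in both libraries.

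**Figure D2:**
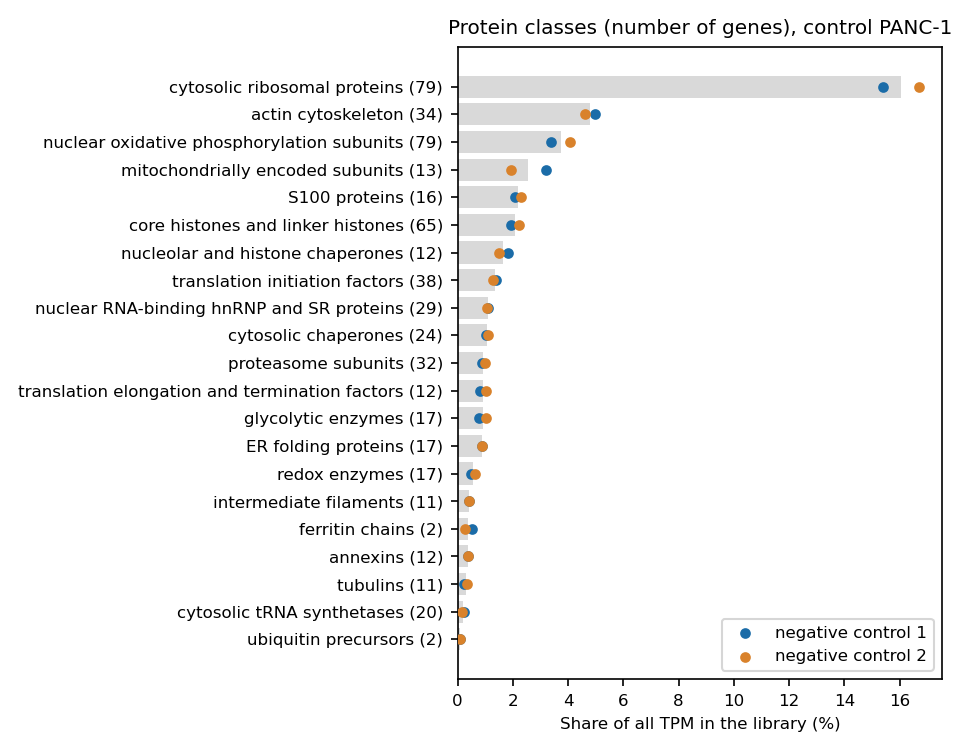
Share of all TPM in percent (horizontal axis) taken by 21 protein classes, with the number of genes in brackets, the grey bar at the mean and 1 point for each library. Ribosomal proteins lead at 15.4 and 16.7%, and the points of the mitochondrially encoded subunits lie apart at 3.21 and 1.92%.

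PANC-1 came from a tumour of the pancreatic duct, and the lineage genes were read to see which traces of pancreatic identity its translatome held. Over all lineage and cell type lists 71 of 244 genes were present (29.1%, against 53.9% of all genes), with a median mean of 0.198 TPM against 2.73 TPM over all genes. The list of simple epithelium and duct had 11 of 22 present. After KRT18 and KRT8 came ANXA4, an annexin of ductal epithelia, at 147 and 159 TPM. SOX9, the transcription factor of the pancreatic duct and its progenitors, had 77.7 and 66.9 TPM. The other present members of this list lay between a mean of 1.32 TPM (MUC1) and 58.1 TPM (CLDN4). Among them EPCAM and CDH1, the classical epithelial surface proteins, were low at 1.87 and 3.64 TPM and 1.73 and 2.78 TPM. CFTR and KRT23 were listed at 0 in both libraries, and KRT7 was below 1 TPM in library 1. Of the markers behind the label of pancreatic adenocarcinoma cells, KRT18, KRT8, KRT19 and SOX9 were thus well above 1 TPM, and several ductal markers were low or at 0.

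Exocrine and endocrine genes were nearly all under 1 TPM. Of 20 acinar genes, which make and control digestive enzymes, only SPINK1, a trypsin inhibitor, was present at 4.06 and 1.49 TPM, and 17 were listed at 0 in both libraries, against 30.3% of all genes. Of 24 islet genes 3 were present, namely SYP, a synaptic vesicle protein, at 10.8 and 11.3 TPM, SCG2 at 2.88 and 2.69 TPM and CHGB at 2.46 and 2.46 TPM, both granins of secretory granules. INS, GCG and SST, the genes for insulin, glucagon and somatostatin, were among the 13 listed at 0. Of 18 pancreatic and foregut transcription factors 6 were present (33.3%, against 53.9% of all genes). TCF7L2, the DNA-binding partner of beta-catenin, led at 152 and 70.8 TPM, followed by SOX9 and by FOXA2, a pioneer factor of endoderm, at 18.6 and 21.2 TPM. The others were HHEX at 9.72 and 16.7 TPM, GATA4 at 7.96 and 7.18 TPM and MNX1 at 3.62 and 1.98 TPM. PDX1, the master factor of pancreas formation, was listed at 0, as was HNF4A.

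Pancreatic tumours are commonly sorted into a classical, more differentiated type and a basal-like type. Of 23 classical genes 4 were present: AGR2, a disulfide isomerase of secretory cells, at 371 and 541 TPM, LGALS4, a galectin, at 10.3 and 7.38 TPM, LYZ, lysozyme, at 8.52 and 3.47 TPM and CEACAM6, a surface glycoprotein, at 1.81 and 3.97 TPM. Of 23 basal-like genes 7 were present, led by S100A2 at 28.9 and 43.2 TPM, the glucose transporter SLC2A1 at 25.8 and 42.7 TPM and the EGFR ligand AREG at 29.5 and 33.2 TPM. The remaining 4 were CTSV, DHRS9, TNS4 and KRT15. Both shares lay under the 53.9% of all genes, and no test between the lists was made. AGR2 alone was above every basal-like member in both libraries.

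Mesenchymal genes were read more broadly. Of 24 genes 17 were present (70.8%), with a median of 11.4 TPM. After TPM2 and VIM came S100A4, a calcium-binding protein of motile cells, at 686 and 1014 TPM. ZEB1, a repressor of epithelial genes, had 12.4 and 9.09 TPM, and CDH2, N-cadherin, had 3.65 and 3.10 TPM, above CDH1 in each library. FN1, fibronectin, was under 1 TPM in both libraries at 0.382 and 0.152 TPM, and TWIST1 was listed at 0. Epithelial junction genes were present in 20 of 28 (71.4%), so the epithelial and mesenchymal lists had nearly the same share, above the 53.9% of all genes. CTNNA1 and CTNNB1, the catenins beneath cadherins, had 106 and 132 TPM and 91.1 and 116 TPM. JUP, plakoglobin, had 34.5 and 164 TPM, far apart between the libraries. Of the epithelial regulators in the list, GRHL2 and OVOL1 were listed at 0 and ESRP1 was under 1 TPM in both libraries. ESRP2, a splicing regulator, had 17.0 and 7.85 TPM, and ELF3, a transcription factor, had 4.76 and 2.95 TPM. ZEB1, CDH2, FN1 and the ESRP and ELF3 genes were chosen after their values were seen.

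Genes of cell types that a pure culture should lack were mostly under 1 TPM. In a bulk library, few cells with much of an mRNA and many cells with little of it cannot be told apart. No endothelial (of 10) or erythroid (of 10) gene was present, against 53.9% of all genes. Leukocyte genes were present in 2 of 16, LYZ and CD14, the latter at 1.10 and 1.46 TPM, while PTPRC, the common leukocyte antigen, was at 0. Among hepatocyte genes 1 of 12 was present, SERPINA1, alpha-1-antitrypsin, at 2.47 and 2.75 TPM, with ALB at 0. Fibroblast genes were present in 3 of 12: COL1A1 at 111 and 86.5 TPM, COL3A1 at 12.97 and 14.2 TPM and THY1 at 2.54 and 2.91 TPM. COL1A2, which pairs with COL1A1 in type I collagen, was under 1 TPM at 0.484 and 0.205 TPM. Of 12 neuronal genes SYT1, a calcium sensor of vesicle release, had 91.7 and 70.5 TPM and GAD1 had 3.01 and 5.12 TPM. The summed level of the leukocyte list was 13.9 and 7.53 TPM, and that of the fibroblast list 127 and 106 TPM.

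**Figure D3:**
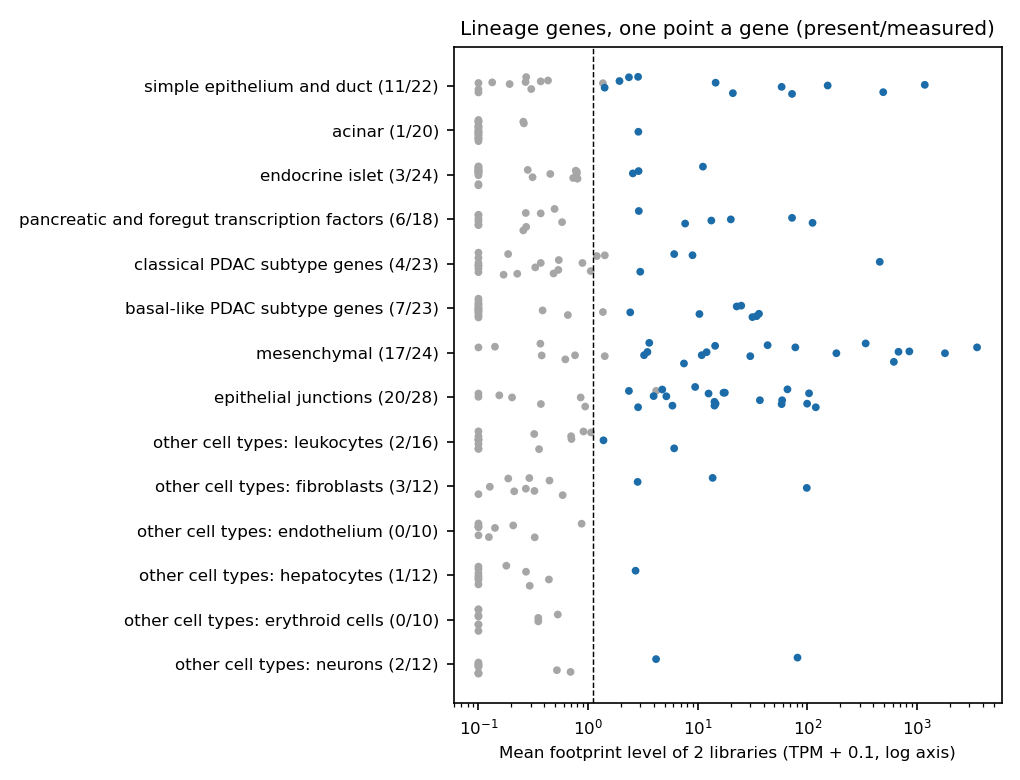
Mean footprint level over the 2 control libraries, as TPM + 0.1 on a log axis, with 1 point for each gene of the lineage and cell type lists, blue where the gene was present and grey where it was not, and the dashed line at 1 TPM. Mesenchymal (17 of 24) and junction genes (20 of 28) lie mostly right of the line, acinar (1 of 20) and islet genes (3 of 24) mostly at the left edge. Grey points right of the line are genes whose mean passed 1 TPM while 1 library did not.

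Pancreatic cancers often lose the tumour suppressors CDKN2A and SMAD4. SMAD4, the shared mediator of TGF-beta signals, had 5.93 and 7.83 TPM. CDKN2A, the inhibitor of CDK4 and CDK6, was listed at 0 in both. Footprint totals do not separate mutant from normal copies of a gene.

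Over all driver and signalling lists 110 of 124 genes were present (88.7%, against 53.9% of all genes), with a median of 27.0 TPM. The lists hold genes known to act in this tumour or in growth control, and no test of the shares was made. Of 30 further genes mutated in pancreatic cancer 27 were present. GNAS, the stimulatory G protein subunit, had 1841 and 1152 TPM, AKT2, a kinase of the PI3K pathway, had 1299.8 and 968 TPM, and U2AF1, a splicing factor, had 379 and 296 TPM. GNAS and AKT2 were far above U2AF1 in each library. RNF43, a ubiquitin ligase that removes Wnt receptors, was listed at 0, and BRCA2 and GATA6 stood under 1 TPM. Of 28 genes of the MAP kinase and RAL pathways and their targets 27 were present, led by FOSL1, an AP-1 subunit induced by ERK, at 223 and 247 TPM. RALB, a small GTPase, had 151 and 131 TPM, and PHLDA1 had 121 and 160.3 TPM.

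In the list of cell-cycle entry 19 of 23 genes were present (82.6%, against 53.9% of all genes). The median over the whole list was 14.4 TPM, against 2.73 TPM over all genes. CCND1, cyclin D1, had 181 and 212 TPM, its kinase CDK4 had 142 and 221 TPM and the inhibitor CDKN1A had 87.5 and 118 TPM. The members at 0 were CDKN2A, CDKN2B and CCND2. Of 26 MYC, AP-1 and stemness factors 20 were present, with HMGA1, a chromatin protein, at 796 and 1059 TPM, ID1, a blocker of differentiation factors, at 591 and 724 TPM and ID3 at 238 and 337 TPM. MYC itself had 163 and 124 TPM and was picked as its list's namesake. All 17 genes of the YAP and TEAD list were present, with a median of 63.6 TPM. CCN1 and CCN2, matrix proteins that YAP induces, had 669 and 684 TPM and 269 and 409.9 TPM, and NF2, an inhibitor of YAP, had 205 and 153 TPM.

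Several highly read genes lie side by side on chromosome 19, a stretch that was picked out after the values were seen. PANC-1 is known for an amplified AKT2 region, but copy number was not measured here. Between SPINT2 and AKT2 (chr19:38244035-40285536, GENCODE 29 on GRCh38) 48 of 66 genes were present (72.7%), and 9 had a mean of at least 1000 TPM (13.6%). On the rest of chromosome 19 the share present was 55.8% of 1395 genes, and 15 reached 1000 TPM (1.08%). The median of present genes was 93.4 TPM in the stretch and 17.6 TPM elsewhere on the chromosome. The 9 genes were PPP1R14A, a phosphatase inhibitor, EIF3K, ACTN4, an actin cross-linker, PAF1 and SUPT5H, which act on elongating RNA polymerase II, RPS16, FBL, a nucleolar methyltransferase, PSMC4 and AKT2. SUPT5H had 3961 and 2592 TPM, ACTN4 2405 and 1508 TPM and FBL 1657 and 2004 TPM. PPP1R14A had 1056 and 1049 TPM and PAF1 1205 and 864 TPM. In the 9 genes left of SPINT2 and the 52 right of AKT2 that were plotted beside the stretch, 0 and 1 reached 1000 TPM, the latter RPS19 at 1467 and 1662 TPM. Whether gene copies, mRNA or reading per mRNA set these levels was not tested.

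PSMC4 and EIF3K were also the highest subunits of their own complexes. In the proteasome ATPase ring the 6 subunits ran from 117 TPM (PSMC1) to 2042 TPM (PSMC4) with a median of 153 TPM, on mean levels. In eIF3 the 13 subunits ran from 71.1 TPM (EIF3L) to 1518 TPM (EIF3K), with a median of 328 TPM. These complexes were also chosen after the values were seen.

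A stretch with few present genes surrounds CDKN2A on chromosome 9, a gene that PANC-1 is known to lack, and its bounds were also set after the values were seen. Between FOCAD and ELAVL2 (chr9:20658309-23826337) 2 of 24 genes were present (8.33%), against 55% of all protein-coding genes with a position. FOCAD, at the outer edge, had 5.63 and 5.16 TPM and KLHL9, a ubiquitin ligase adaptor, had 3.94 and 4.55 TPM. MTAP, an enzyme of methionine salvage next to CDKN2A, had 0.195 and 0.363 TPM, under 1 TPM in both libraries. CDKN2A and CDKN2B were listed at 0. Most other genes of the stretch are type I interferons, which cells make mainly on infection, and all of these were listed at 0. Copy number was not measured here, and what set the low share of present genes was not tested.

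**Figure D4:**
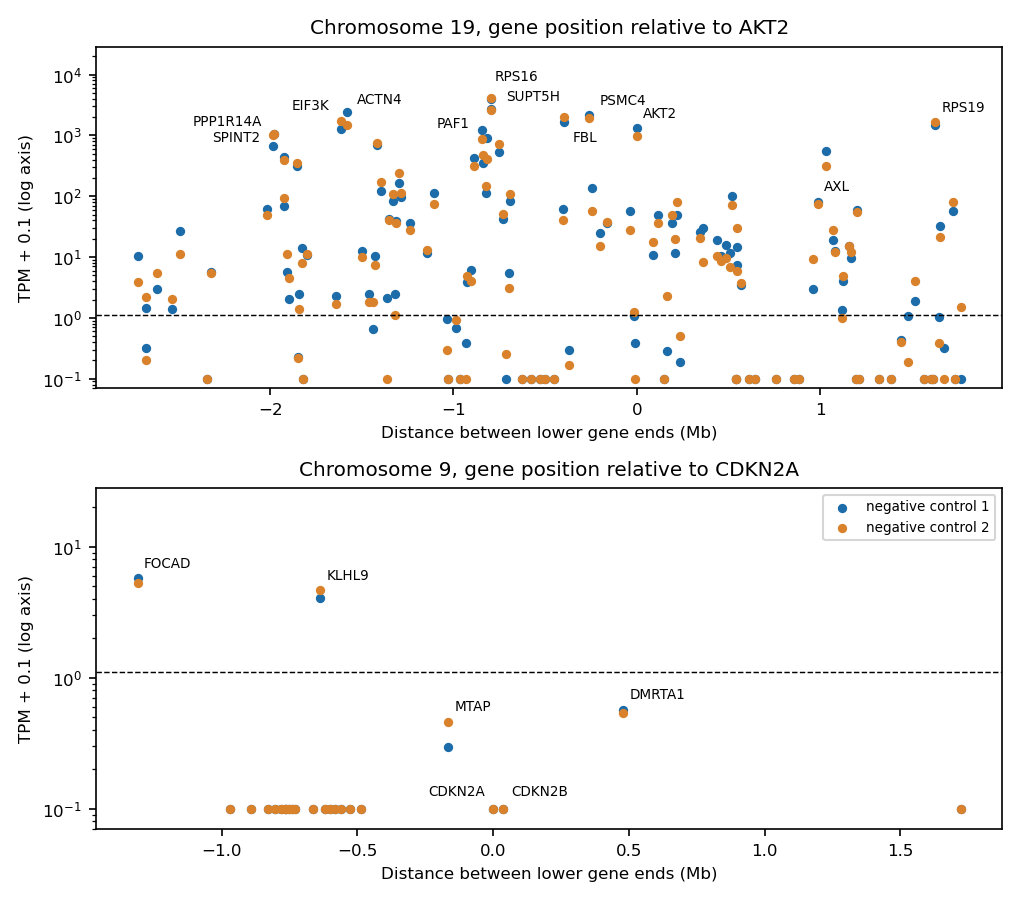
Footprint level in each control library, as TPM + 0.1 on a log axis, against distance in Mb between the lower end of each gene and that of AKT2 (upper panel) or CDKN2A (lower panel), with the dashed line at 1 TPM. Genes at or above 1000 TPM crowd between SPINT2 and AKT2, and around CDKN2A only FOCAD and KLHL9 are above the line.

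Receptors decide which outside signals a cell can hear. Over all receptor and surface lists 157 of 299 genes were present (52.5%), near the 53.9% of all genes. Of 51 receptor tyrosine kinases 24 were present. EPHA2, the ephrin receptor, had 133 and 122 TPM, AXL, the receptor of GAS6, had 80.8 and 74.1 TPM, and DDR1, a collagen receptor, had 89.3 and 52.7 TPM. EGFR, picked out after its value was seen, followed at 46.5 and 40.4 TPM. TGF-beta family receptors were present in 9 of 14, with TGFBR2 at 17.6 and 22.5 TPM, TGFBR1 at 12.2 and 19.9 TPM and BMPR2 at 18.8 and 12.5 TPM. Both chains of the TGF-beta receptor were thus read, while their mediator SMAD4 was lower in both libraries than either chain.

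Of 25 integrin subunits 9 were present (36%, against 53.9% of all genes), and the list had a median of 0.816 TPM. Its highest member ITGB1, the beta chain that pairs with most alpha chains, had 507 and 954 TPM. ITGA3, of the laminin receptor, had 228 and 142 TPM, and ITGB5, of a vitronectin receptor, had 82.6 and 73.1 TPM. CD44, the hyaluronan receptor and, by mean, the highest of all surface proteins after B2M in these lists, had 2959.7 and 2219 TPM. SLC3A2, the heavy chain of amino acid transporters, had 228 and 262 TPM, and SDC4, a heparan sulfate proteoglycan, had 183 and 261 TPM. Nutrient and cargo receptors were present in 18 of 21 (85.7%).

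Cytokine and interferon receptors were present in 16 of 36 (44.4%, against 53.9% of all genes). IL13RA1 had 79.1 and 111 TPM, IFNGR2 had 42.4 and 45.7 TPM and IL6ST, the shared chain of the IL-6 family, had 39.6 and 41.2 TPM. TNF receptors were present in 10 of 21 (47.6%). TNFRSF12A, the receptor of TWEAK, had 454 and 654 TPM, well above TNFRSF1A at 32.3 and 53.6 TPM and TNFRSF10B, a TRAIL receptor, at 27.4 and 29.4 TPM. Notch and Wnt receptors were present in 10 of 22 (45.5%), led by LRP5, a Wnt co-receptor, at 63.1 and 47.1 TPM. NOTCH2 had 5.24 and 31.8 TPM, so that its level rests on library 2, and FZD6 had 14.3 and 17.5 TPM. Of 45 G protein-coupled receptors 20 were present (44.4%). F2RL1, which proteases activate, had 128 and 211 TPM, GPRC5A had 108 and 197 TPM and ADGRE5, the adhesion receptor CD97, had 133 and 95.3 TPM. Nuclear receptors were present in 19 of 33 (57.6%). RARA, a retinoic acid receptor, had 84.0 and 80.6 TPM, NR2F2 had 22.4 and 33.4 TPM and PPARG had 24.1 and 25.2 TPM. ESR1, the estrogen receptor, was listed at 0.

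Immune surface genes were present in 22 of 31 (71%, against 53.9% of all genes), with a median of 28.2 TPM. B2M led, followed by CD70, a ligand of T cells that is usually made by activated lymphocytes, at 434 and 738 TPM. CD59, which blocks complement, had 187 and 54.5 TPM. CD274, the checkpoint ligand PD-L1, was under 1 TPM at 0.403 and 0.302 TPM. CD274 was picked out after its value was seen.

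Secreted products were present in 135 of 242 genes (55.8%), again near the share of all genes. Among 54 growth factors 32 were present. DKK1, a secreted Wnt inhibitor, had 318 and 434 TPM, GDF15, a stress-induced cytokine, had 279 and 452 TPM and HDGF had 245 and 261 TPM. Of the EGFR ligands, EREG had 70.9 and 103 TPM and HBEGF 5.82 and 8.24 TPM, AREG was read as given above, and TGFA and EGF were listed at 0. Among 43 cytokines and chemokines 18 were present. CCL2, which draws monocytes, led at 582 and 794 TPM, followed by MIF at 132 and 168 TPM and ISG15, an interferon-induced ubiquitin-like protein, at 66.3 and 139 TPM. CCL2 was well above MIF in each library. IL6, IL1A and IL1B were listed at 0.

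Matrix proteins were present in 27 of 50 (54%, near the 53.9% of all genes). MFGE8, which bridges dying cells to phagocytes, had the highest mean at 667 and 941 TPM, although CCN1 was as high in library 1, and CCN2 came after both. The basement membrane collagens COL4A1 and COL4A2 were listed at 0. Proteases and their inhibitors were present in 30 of 47 (63.8%). SPINT2, an inhibitor of membrane serine proteases, had 666 and 999 TPM and CTSB, cathepsin B, had 354 and 629 TPM. SPINT2 belongs to the chromosome 19 stretch. Of 48 mucins, galectins and other secreted products 28 were present (58.3%). LGALS1, galectin-1, had 1324 and 1886 TPM, APP, the amyloid precursor, had 1641 and 1182 TPM and CLU, clusterin, had 1161 and 1223 TPM. The trefoil factors TFF1 and TFF2 were listed at 0 in both libraries, and the mucins MUC2, MUC6 and MUC16 were under 1 TPM in both.

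Levels in the pair of libraries were alike across genes. On log2(TPM + 1) over the 14153 genes above 0 in either library, Pearson's r was 0.967 and Spearman's rho 0.958, where genes are not independent replicates. The SD of the log2 ratio was 0.64, and the median coefficient of variation of present genes was 20.9%. Among present genes 845 of 10938 (7.73%) differed by more than 1 on this log2(TPM + 1) scale, which understates the differences of low genes. That share was 10.6% at a mean of 1 to 10 TPM, 7.30% at 10 to 100, 2.69% at 100 to 1000 and 1.19% above.

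The differences between the libraries followed gene length and class. Split into 5 groups of like size by coding length, present genes had a median log2 ratio of library 1 over library 2, with 1 TPM added to each value, of -0.26 in the shortest group (75 to 747 nt) and 0.39 in the longest (2499 to 26391 nt). The groups between had -0.14, 0.01 and 0.15, in order of length. Across 10760 genes the ratio and coding length had a Spearman's rho of 0.37. All 13 mitochondrially encoded genes were higher in library 1, with a median log2 ratio of 0.65. Of 79 ribosomal protein genes 64 were higher in library 2 (median -0.24), as were 69 of 78 nuclear respiratory subunits (median -0.40). Ribosomal proteins and respiratory subunits are themselves short, and the parts of length and class in these shifts were not tested.

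**Figure D5:**
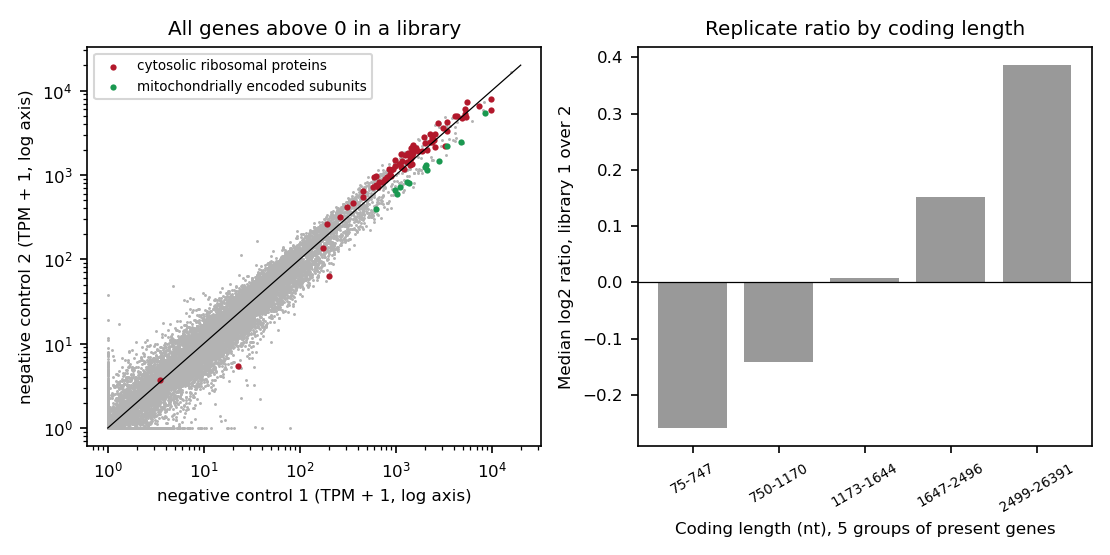
Left, TPM + 1 of each gene in library 2 against library 1 on log axes, with ribosomal proteins in red, mitochondrially encoded subunits in green and the line of equality. Right, the median log2 ratio of library 1 over library 2, with 1 TPM added to each value, in 5 groups of coding length in nt, which goes from -0.26 in the shortest to 0.39 in the longest group.

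Among 5204 present genes with a mean of at least 20 TPM, the lowest ratios of library 1 over library 2 on the log2(TPM + 1) scale belonged to ZNF761, a zinc finger protein, at 3.75 and 47.5 TPM, ACSS2, which makes acetyl-CoA from acetate, at 6.25 and 33.9 TPM, JUP, GRB10, an adaptor of the insulin receptor, at 23.5 and 110.3 TPM and a gene without a symbol. The highest belonged to ZNF316 at 48.7 and 9.53 TPM, CLASP1, a microtubule-stabilizing protein, at 34.1 and 7.06 TPM, CAPN10, a calpain, at 58.7 and 13.6 TPM, another gene without a symbol, and PFKM, the muscle form of phosphofructokinase, at 34.7 and 9.31 TPM. For these genes the mean of the pair does not stand for either library.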

How the data were processed

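Ribosome-protected fragments were prepared after cycloheximide arrest, RNase I digestion, size exclusion and removal of ribosomal RNA, per the labels' protocols. Per the file headers the authors' values are in TPM, 1 per gene and library. The tools fastp, STAR, RSEM, DESeq2 and Bowtie2 2.2.8 and the build GRCh38 are listed in the submitters' processing notes, which give neither their order nor their use. What annotation and gene lengths entered the TPM, and whether genes were filtered, was not stated there. TPM is relative within a library, so its precision cannot be set from a depth. The columns are named NS and KO, and NS was read as negative control from the names alone. The 2 KO columns were not used.

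Means, SDs and shares of TPM were computed in Python 3.11.15 with pandas 2.3.3, numpy 2.4.6 and scipy 1.17.1, and figures were drawn with matplotlib 3.10.9. A gene was called present at 1 TPM or more in both libraries. With a single group no test between groups was made. Replicate agreement and all log2 ratios between the libraries used log2(TPM + 1), a scale on which ratios of low genes are understated. The steps were tested on simulated data for a share of TPM, Pearson's r and the SD of the log2 ratio, and 3 of 3 were recovered. The presence count was not tested in this way.

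Positions and coding lengths came from GENCODE 29, and transcript starts from RefSeq GRCh38.p14. A single complete coding sequence per gene was chosen by principal isoform level (APPRIS), then consensus annotation (CCDS), then length. The groups by coding length and the rank correlation with it used the longest complete coding sequence of a gene instead. Symbols came from a gene name table for 19702 of the 20307 identifiers. For 15 pseudoautosomal genes the table lists the same values under a pair of identifiers, and a gene in a list was counted once.

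The members and lists (56 in all) were chosen with earlier results of these data known. The genes named are the 30 highest by mean TPM, main driver genes, FBXO32, the 3 highest present members of each list (all where 5 or fewer were present), the 5 highest and 5 lowest ratios between the libraries, and defining markers listed at 0. Some genes that this rule names are not reported here. Other genes were picked out after their values were seen, among them the further members of a list named beside these. Alternatives were other minimums, pseudocounts and scalings, a weighting of TPM by coding length, removal of the 20 highest or the mitochondrially encoded genes, and leaving out each library.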

Additional observations from a re-analysis of the deposited data

How the results depend on the processing

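The counts of present genes, over all genes and over all lineage, driver, receptor and secreted lists, stayed within 1.5 times under every minimum tried. Over all genes they ran from 8341 at 5 TPM in both libraries to 11941 at 1 TPM in either, and leaving out each library gave 11426 and 11453. Single lists moved more: at 0.5 TPM 3 of 35 lists and at 5 TPM 11 of 35 left that range, and without each library in turn 1 of 35 did. Weighting TPM by coding length would stand for ribosomes per gene only if that length entered the TPM, which was not stated. The weighting moved the share of the 100 highest genes to 20.6%, ribosomal proteins to 7.78% and nuclear respiratory subunits to 1.54%. It moved actin to 3.96% and S100 proteins to 0.630%. Of the smaller classes it moved histones to 0.788%, initiation factors to 2.26%, tRNA synthetases to 0.411%, redox enzymes to 0.341% and ferritin to 0.216%. Without the 20 highest genes the shares were 11.01% for ribosomal proteins, 4.25% for nuclear respiratory subunits, 3.29% for actin and 0.644% for S100 proteins. Without the mitochondrially encoded genes the 100 highest held 29.5%. For these removals the cause lies in their construction, since genes of the class or of the top left the sum. Pearson's r was 0.933 with a pseudocount of 0.1, 0.961 over genes at 1 TPM in both and 0.956 at 5 TPM. No paired analysis was possible because only 1 group was described. Depth is unknown, so genes near 1 TPM cannot be called absent.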

Other observations

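Subunits of the same complex were not read evenly per unit of length, in complexes chosen after the values were seen. A single gene was counted for each subunit, so any related genes for the same subunit were left out. How many copies of each subunit a complex held was not measured. The 14 subunits of the 20S proteasome core, the chamber that degrades proteins, ran from a mean of 34.6 TPM (PSMA2) to 582 TPM (PSMA7), and 12 lay within 2-fold of their median of 207 TPM. The 8 subunits of TRiC, which folds actin and tubulin, ran from 138 TPM (CCT2) to 608 TPM (CCT3), with 7 within 2-fold of the median. The 7 subunits of Arp2/3, which branches actin filaments, ran from 122 TPM (ARPC1B) to 503 TPM (ARPC5), with 6 within 2-fold. In eIF3 the count was 10 of 13, and in the proteasome ATPase ring 4 of 6.

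Weighted by TPM, the codons of the control translatome leaned towards lysine. Over 19328 coding sequences, of present and other genes, lysine codons made up 7.49% in library 1 and 7.46% in library 2. Without weighting, where every codon of every sequence counted equally, they made up 5.76%. The lysine codon AAG alone held 4.56% on average against 3.20%. Lysine was not alone, since arginine codons were also higher with weighting, at 6.05 and 5.99% against 5.65%. The glutamate codon GAG held 4.65% on average against 4.06%. Leucine codons were lower with weighting, at 8.85 and 8.91% against 9.98%, and so were serine codons, at 7.15 and 6.94% against 8.29%. Codons ending in G or C made up 58.5 and 58.6% against 58.1%.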
